A study of Mus musculus with 23 samples.

Results

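A set of 10 genes of the alveolar type 1 (AT1) cell, Ager, Hopx, Rtkn2, Aqp5, Emp2, Pdpn, Gprc5a, Akap5, Clic5 and Cav1, was followed through lung RNA-Seq of adult offspring. The genes were taken by symbol from a table of 35322 genes, in which each was listed once. The set was chosen with earlier results of these data known. All 10 were among the 16795 genes with enough reads to be tested. The lungs came from 23 Balb/c offspring, which the methods of the study give as females aged 13 weeks. Sham offspring (n = 7) were born to dams given saline and PM offspring (n = 7) to dams given fine particulate matter (PM2.5), and both received a control challenge, which the labels call PBS and the methods saline. Sham-OVA (n = 5) and PM-OVA (n = 4) offspring came from the same kinds of dam and were made allergic to ovalbumin (OVA), which was then given by the airway as a standard model of allergic airway disease. Lung function had been tested with methacholine in the offspring before the tissue was taken. The tissue is labelled Lung (RML) and described as right lower lobe in the methods. Each library is a homogenate of all the cells of that piece of lung, and nothing in the labels says whether offspring of a group shared a litter.

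AT1 cells are the very thin, flat cells that cover most of the alveolar surface and form the epithelial side of the barrier across which gases diffuse. They lie against capillary endothelium, share a basement membrane with it, carry many caveolae and water channels, and are renewed from alveolar type 2 (AT2) cells. Several of the 10 genes are also used by other lung cells, since Cav1 and Emp2 are active in endothelium and Pdpn in lymphatic endothelium and mesothelium, whereas Ager and Rtkn2 are largely AT1 genes in the lung. The supplement of the study lists Clic5 among endothelial signature genes, and Ager, Gprc5a and Akap5 among epithelial ones.

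The 14 saline libraries held 13089691 to 17393579 counted reads and the 9 OVA libraries 2298645 to 12355561. The shallowest was Sham-OVA replicate 3, followed by replicates 4 (4324326) and 3 (5922469) of PM-OVA. The lowest count behind any member value was 172 reads, for Akap5 in Sham-OVA replicate 3. Values are given as RPM, the reads counted on a gene scaled to a common library total. Sham replicate 1 had 0.289 RPM of Xist and 54.0 RPM of the Y-linked Eif2s3y, against the female label. It was kept, and the results without it and 3 other libraries in doubt (Sham replicate 6, Sham-OVA replicate 3 and PM-OVA replicate 1) are given where they differ. Sham replicate 6 had the highest Retnla and Jchain of its group, 94.1 and 145 RPM, genes that rose with OVA. PM-OVA replicate 1 had the most reads of the OVA libraries and their lowest Retnla, at 8337 RPM. PM replicates 1 and 5, described below, were not in this set. Ccl11, a chemokine of allergic inflammation, was at 0.868 to 3.16 RPM in the saline libraries and at 61.2 to 116 RPM in the OVA libraries, so its level separated the challenge labels. Clca1, a goblet cell gene, was at 178 RPM in PM replicate 1, against 0 to 6.16 RPM in the other saline libraries and 423 RPM or more in the OVA libraries. The 8 falls in PM offspring passed without PM replicate 1 too.

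In the unchallenged lung the 10 genes differed widely in level. Levels of different genes are compared per length, as RPM divided by the kilobases (kb) of all annotated exons of the gene. In Sham lungs the order ran from Ager, at 751 ± 136 RPM per kb (SD, n = 7), and Hopx, at 703 ± 87.9, through Cav1 (508 ± 68.2), Gprc5a (275 ± 26.1), Emp2 (199 ± 39.6), Clic5 (148 ± 28.5), Aqp5 (142 ± 26.6), Akap5 (87.9 ± 16.2) and Pdpn (78.3 ± 15.7) to Rtkn2, at 49.5 ± 5.06. Of the 9 neighbouring pairs in this order, 3 were closer than the larger of their SDs: Ager and Hopx, Clic5 and Aqp5, and Akap5 and Pdpn. PM lungs had the same order, with Ager at 801 ± 120 and Rtkn2 at 47.9 ± 3.68 RPM per kb. After OVA challenge Ager and Hopx stayed in the first and second places in each of the 9 libraries, and the genes below them were rearranged. Pdpn, just above Rtkn2 in Sham and PM, came next after Cav1 in Sham-OVA at 97.1 ± 28.1 and after Aqp5 in PM-OVA at 88.5 ± 10.6, and Clic5 stood at 22.4 ± 8.69 in Sham-OVA, within 1 SD of Rtkn2 above it and Akap5 below it. Dividing by the longest transcript in place of all exons put Emp2 before Gprc5a in the Sham order and left the other genes in place.

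**Figure D1:**
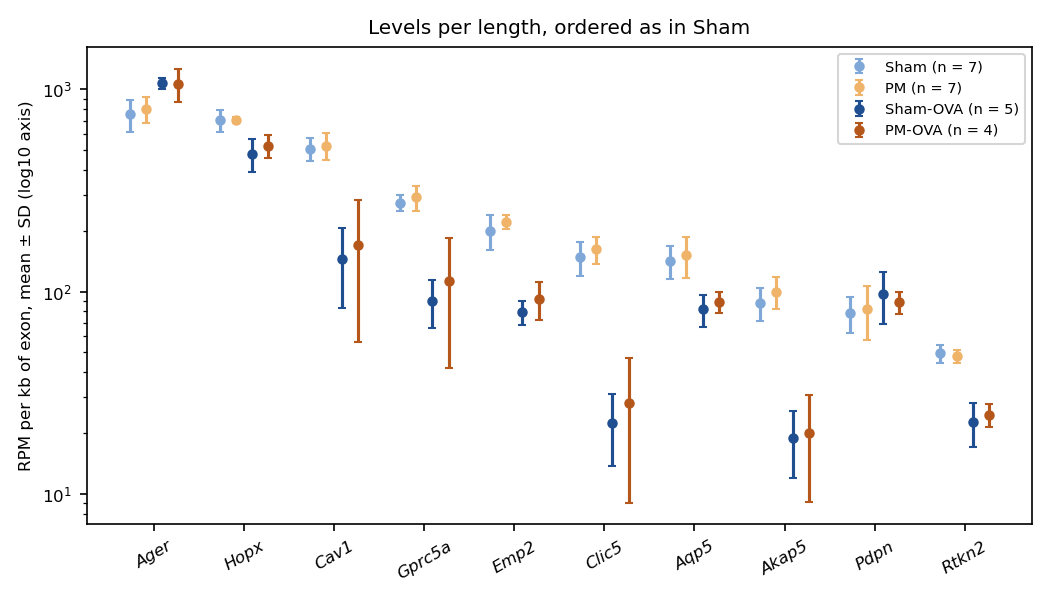
Mean level of each gene in RPM per kb of exon on a log10 axis, with bars of 1 SD, for Sham and PM (n = 7 each), Sham-OVA (n = 5) and PM-OVA (n = 4), ordered by the Sham mean. Ager and Hopx lead in all 4 groups, and Clic5 and Akap5 fall to the level of Rtkn2 in the OVA groups.

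The comparison of Sham-OVA with Sham asked what the challenge did to these genes in offspring of unexposed dams. Of the 10 genes, 8 fell at a Benjamini-Hochberg adjusted p under 0.05 from limma, 1 (Ager) rose with the deposited scaling but not with a length and GC trend removed, and Pdpn did not pass. Over all genes tested, 47.5% were called lower and 20.6% higher by the same rule, so a fall was the most common call in this comparison. The 8 genes that fell had no OVA library as high as the lowest saline library, which held for 35.0% of all genes. The median change of the 10 genes was -1.24 on the log2 scale, against -0.48 over all genes tested. The range of falls was wide, from -0.56 for Hopx to -2.83 for Clic5. With limma none of the 10 reached the threshold of the study for a differentially expressed gene, an adjusted p under 0.000001 with an absolute log2 fold change above 1, against 2.53% of all genes tested that were lower at it, and Clic5 came nearest with an adjusted p of 1.16e-06. With DESeq2 on the recovered reads, the tool of the study, Gprc5a, Akap5, Clic5 and Cav1 were lower at it (4 of 10), against 15.0% of all genes. In a bulk sample, fewer cells of a type and less RNA per cell cannot be told apart.

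The deposited values share each library out among its genes, and the median gene moved by -0.48 with the deposited scaling but by -0.049 with the scaling of edgeR. With the deposited scaling 3453 genes were called higher and 7978 lower, and with edgeR 5584 and 5669. Changes relative to the median gene are therefore given too. Relative to it, the log2 change was -2.35 for Clic5, -1.82 for Akap5, -1.51 for Cav1, -1.18 for Gprc5a, -0.84 for Emp2, -0.68 for Rtkn2, -0.32 for Aqp5 and -0.081 for Hopx, while Pdpn stood 0.75 and Ager 1.01 above it. Hopx moved with the median gene, and its call was lost with each of the 4 scalings or tools that centre the genes (median-of-ratios, TMM, DESeq2 and edgeR).

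**Figure D2:**
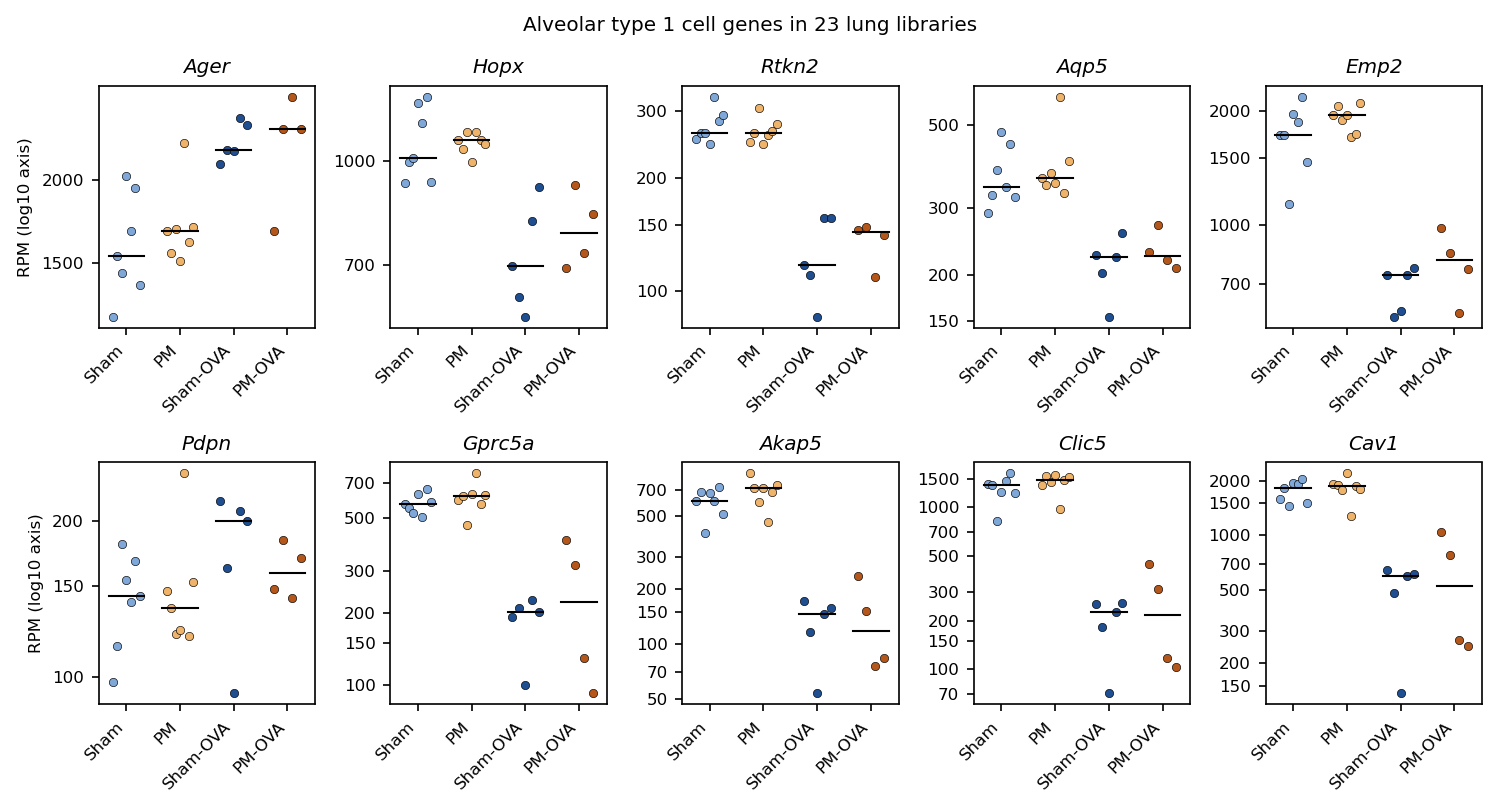
RPM of each gene in each of the 23 libraries on a log10 axis, with a point for each library and a line at the group median. For 8 genes every OVA library lies below every saline library of its cohort, whereas Ager and Pdpn do not fall on this scale (their changes are -0.093 and -0.057 in Sham offspring with the length and GC trend removed).

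Ager, Pdpn and Gprc5a encode proteins of the cell surface. Ager encodes RAGE, a receptor of the immunoglobulin family that is most abundant in lung and sits on the basal side of AT1 cells, and lies at chr17:34597862-34600936 on the plus strand of GRCm38 (ENSMUSG00000015452.14). Its lowest, median and highest values were 1242, 1535 and 2029.9 RPM in Sham, and the 5 Sham-OVA libraries had 2113, 2222, 2214, 2485 and 2421 RPM. Each Sham-OVA library therefore lay above every Sham library. The change was 0.53 on the log2(RPM + 0.5) scale (SE 0.17, adjusted p = 0.0120), but it was -0.093 and did not pass once a trend with transcript length and GC content was removed from each library. It did not pass with quantile normalisation either, where Pdpn did.

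Pdpn encodes podoplanin, a mucin-like glycoprotein of the apical AT1 membrane and the classic T1-alpha antigen, and lies at chr4:143267431-143299564 on the minus strand (ENSMUSG00000028583.14). Pdpn ranged from 98.1 to 180.1 RPM in Sham, with a median of 143, and was at 218, 162, 93.2, 209 and 199.97 RPM in Sham-OVA. The groups overlapped, as 3 Sham-OVA values exceeded the highest Sham value while that of replicate 3 lay below the lowest. The difference was 0.27 (SE 0.21, 95% interval -0.18 to 0.73, adjusted p = 0.270), and without Sham-OVA replicate 3 it was 0.49 and passed. It was -0.057 with the length and GC trend removed, but Pdpn passed as higher in 7 of 17 other settings, with a value of 0.73 under TMM scaling.

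Gprc5a encodes an orphan receptor that is induced by retinoic acid and is abundant in lung epithelium, and lies at chr6:135065651-135084709 on the plus strand (ENSMUSG00000046733.7). Gprc5a went from 503 to 656 RPM in Sham (median 572) to 192, 211, 101, 227 and 202 RPM in Sham-OVA, with no overlap. It was 3.17-fold lower (log2 change -1.66, SE 0.18, adjusted p = 2.70e-06).

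Aqp5 and Emp2 belong to the apical membrane. Aqp5 encodes the water channel of the apical AT1 membrane and lies at chr15:99590782-99594829 on the plus strand (ENSMUSG00000044217.17), and Emp2 encodes a tetraspan membrane protein that acts on integrins and caveolins and lies at chr16:10281749-10313968 on the minus strand (ENSMUSG00000022505.9). Aqp5 had 292, 342 and 478 RPM as the lowest, median and highest Sham values and 225, 202, 154, 223 and 257 RPM in Sham-OVA. Emp2 had 1132, 1725 and 2176 RPM in Sham and 739, 572, 593, 739 and 769.6 RPM in Sham-OVA. Both fell without overlap, with log2 changes of -0.80 for Aqp5 (SE 0.16, adjusted p = 0.000599) and -1.32 for Emp2 (SE 0.18, adjusted p = 1.76e-05).

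Cav1, Clic5 and Akap5, which encode proteins beneath the membrane, had the largest falls with the deposited scaling (with the length and GC trend removed Gprc5a, at -2.19, came before Cav1 and Akap5). Cav1 encodes caveolin-1, the coat protein of caveolae (chr6:17306335-17341452, plus strand, ENSMUSG00000007655.16). Clic5 encodes a protein of the chloride intracellular channel family that ties the membrane to the actin cytoskeleton (chr17:44188584-44280172, plus strand, ENSMUSG00000023959.9). Akap5 encodes an anchoring protein that holds protein kinase A and calcineurin at the membrane (chr12:76324891-76334153, plus strand, ENSMUSG00000021057.15). Clic5 had a lowest, median and highest Sham value of 819, 1368 and 1618 RPM and Sham-OVA values of 251, 181, 71.1, 225 and 256 RPM. The highest Sham-OVA library was thus 1.68 log2 units below the lowest Sham library, and Clic5 was 7.09-fold lower (log2 change -2.83, SE 0.28, adjusted p = 1.16e-06).

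Akap5 went from 404, 604 and 727 RPM in Sham to 172, 116, 53.4, 145 and 157 RPM in Sham-OVA, a 4.93-fold fall (log2 change -2.30, SE 0.25, adjusted p = 2.64e-06). Cav1 went from 1448, 1824 and 2046 RPM to 647, 485, 136, 602 and 618 RPM, a 3.97-fold fall (log2 change -1.99, SE 0.32, adjusted p = 7.97e-05). Neither gene had a Sham-OVA library near the Sham range, and Sham-OVA replicate 3 was the lowest for all 3 genes. Without that library the changes were -2.49 for Clic5, -2.01 for Akap5 and -1.57 for Cav1, and all 3 still passed.

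Hopx and Rtkn2 are the members that act in the cytoplasm and nucleus. Hopx encodes a small homeodomain protein that does not bind DNA itself and works as a cofactor, and lies at chr5:77086988-77115121 on the minus strand (ENSMUSG00000059325.14). Rtkn2 lies at chr10:67979570-68059740 on the plus strand (ENSMUSG00000037846.18). Hopx had 927, 1009.5 and 1244 RPM in Sham and 698, 626, 586, 813 and 915 RPM in Sham-OVA, so that the groups were apart by only 0.019 log2 units. The difference was -0.56 (SE 0.16, adjusted p = 0.00556). Rtkn2 had 245, 262 and 326 RPM in Sham and 117, 111, 85.8, 156 and 156 RPM in Sham-OVA, with a change of -1.16 (SE 0.16, adjusted p = 1.74e-05). Genes on the opposite strand overlap Hopx, Rtkn2 and Cav1, and their own values reached at most 2.10 RPM (Hopxos), 0 (Gm16212) and 0.190 RPM (Gm15581).

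The comparison of PM-OVA with PM asked the same of offspring whose dams had received PM2.5. Again 8 of the 10 genes were called lower, against 45.2% of all genes tested, and 0 were called higher, against 20.1%. The same 8 genes had no overlap between the groups, which held for 28.6% of all genes. The median change of the 10 was -1.13, against -0.43 over all genes. Beside the changes in Sham offspring, those in PM offspring were -2.78 for Clic5 (6.88-fold, SE 0.35, adjusted p = 7.33e-05), -2.45 for Akap5 (SE 0.28, adjusted p = 4.07e-05), -1.89 for Cav1 (SE 0.36, adjusted p = 0.000699) and -1.60 for Gprc5a (SE 0.34, adjusted p = 0.00131). Emp2 changed by -1.29 (adjusted p = 9.16e-05), Rtkn2 by -0.97 (adjusted p = 7.58e-05), Aqp5 by -0.74 (adjusted p = 0.00201) and Hopx by -0.43 (adjusted p = 0.0129), and the calls of Aqp5 and Hopx were lost with the 4 scalings or tools named above. Ager stood 0.40 higher (SE 0.19, adjusted p = 0.0728) and Pdpn 0.14 higher (SE 0.19, adjusted p = 0.523), and neither passed. At the threshold of the study limma called 0 of the 10 lower, against 0.0238% of all genes, and DESeq2 called 2, Akap5 and Clic5, against 6.45%. Ager and Pdpn had negative values, -0.27 and -0.17, with the length and GC trend removed.

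**Figure D3:**
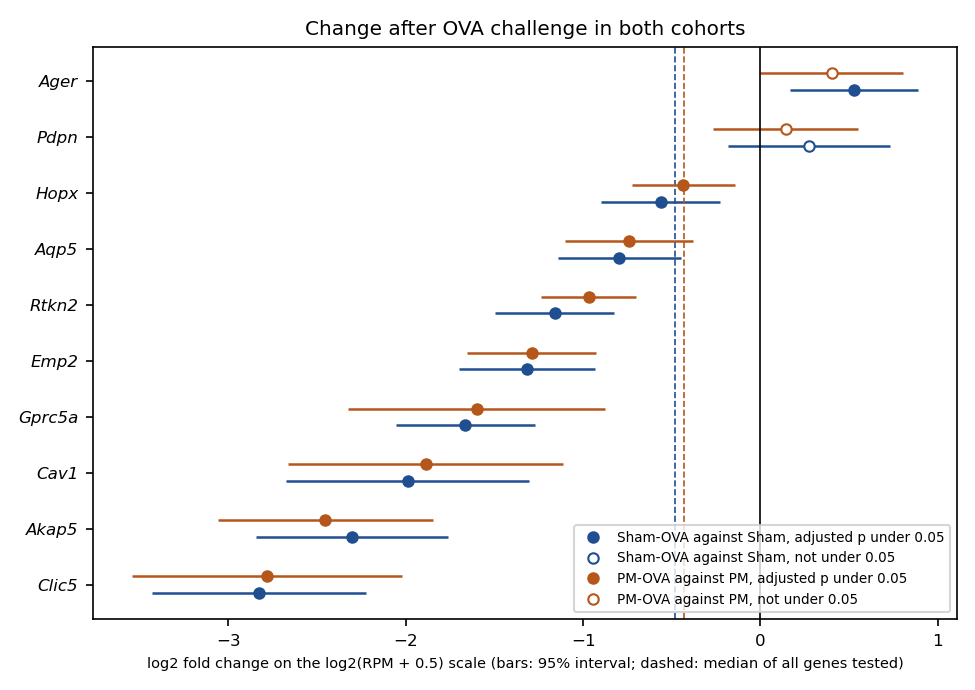
Log2 fold change after OVA challenge in Sham and PM offspring with 95% intervals, filled where the adjusted p was under 0.05, and dashed lines at the median of all genes tested (-0.48 and -0.43). The pairs of points lie close together, from Clic5 at -2.83 and -2.78 to Ager at 0.53 and 0.40, and the values of Ager and Pdpn turn below 0 when the length and GC trend is removed.

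Several members varied widely among the libraries of PM-OVA. Clic5 was at 449.8, 313, 118 and 103 RPM in PM-OVA replicates 1 to 4, against 973 to 1587 RPM in PM. Cav1 was at 1041, 781, 269 and 249 RPM, against 1271 to 2187 RPM, and Akap5 at 235, 151, 75.01 and 83.9 RPM, against 462 to 858 RPM. Replicates 1 and 2 lay above replicates 3 and 4 for each of these genes and for Gprc5a, which was at 404, 317, 130 and 92.8 RPM. Replicates 3 and 4 were also the shallower libraries. Ager had 1677, 2390, 2671 and 2386 RPM in the same libraries, so that replicate 1, the highest for Clic5, Cav1 and Akap5, was the lowest for Ager. Without it, Ager changed by 0.54 and passed, and Clic5 changed by -3.16. Without PM replicate 5, which had the highest Ager value of its group at 2272 RPM, Ager passed too.

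The effect of maternal exposure alone was asked by PM against Sham. None of the 10 genes was called with limma, and 0% of all genes tested were, with 731 genes at an unadjusted p under 0.05 and 0 of them members. DESeq2 and edgeR on the recovered reads called 0 genes each. The differences ran from -0.045 for Rtkn2 to 0.19 for Akap5 (95% interval -0.12 to 0.50), and the intervals of the 10 genes lay between -0.29 and 0.50 on the log2 scale. Emp2 ranged from 1132 to 2176 RPM in Sham and from 1711 to 2092 RPM in PM, and Hopx from 927 to 1244 and from 995 to 1105 RPM.

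PM-OVA against Sham-OVA gave no calls among the 10 genes either, and 0% of all genes tested, with 313 genes at an unadjusted p under 0.05. DESeq2 called 1 gene and edgeR 0, and none was a member. Here the intervals were wider, between -1.15 and 1.44 on the log2 scale, and they were widest for Cav1, whose difference was 0.14. The interaction, which tests whether the change with OVA differed between the cohorts, called 0 of the 10 genes and 0% of all genes tested, with 854 genes at an unadjusted p under 0.05, 2 genes called by DESeq2 and 0 by edgeR. The differences between the cohorts ran from -0.15 for Akap5 to 0.19 for Rtkn2, with intervals between -0.97 and 1.14. With weights for each library, the change with OVA was called more negative in PM than in Sham offspring for 4 members. These were Cav1 (-0.94), Akap5 (-0.90), Clic5 (-0.86) and Gprc5a (-0.72). Of the 16795 genes tested, 3965 were called in that direction and 651 in the other. Without the 4 libraries in doubt, the interaction was called lower for 714 of all genes and higher for 334, none of them members.

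**Figure D4:**
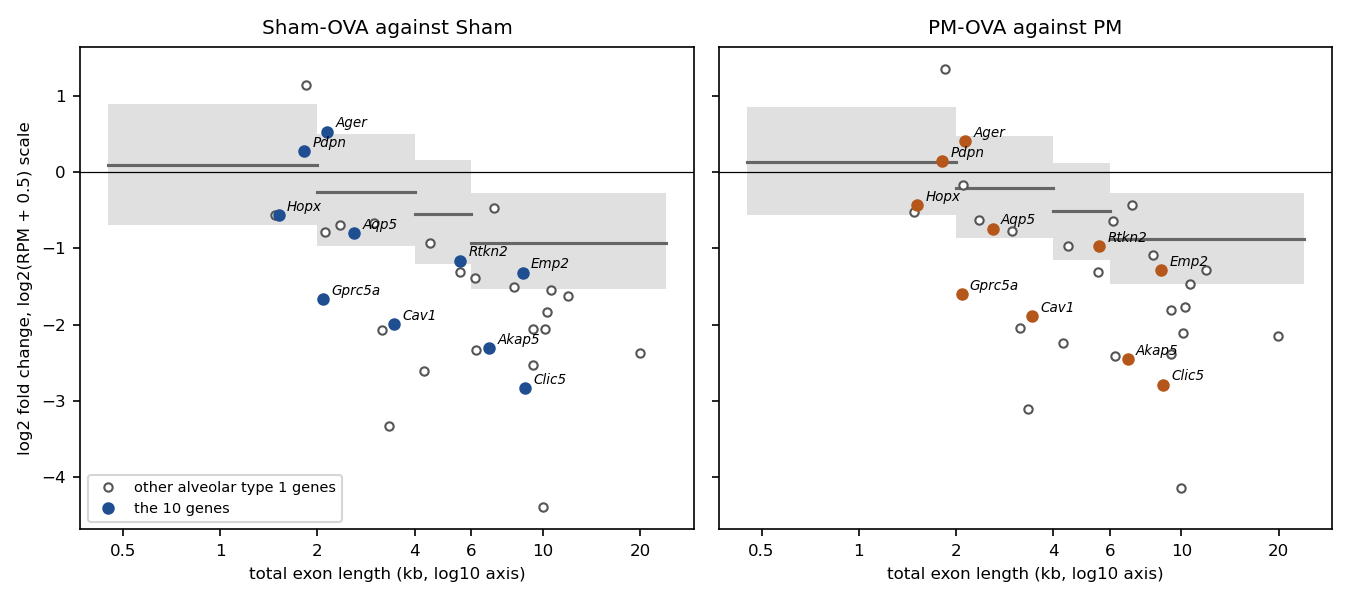
Log2 fold change after OVA challenge against total exon length on a log10 axis, for Sham (left) and PM offspring (right). Grey boxes and lines are the quartiles and the median of all genes tested with a known length in 4 length classes (the last open above), filled points the 10 genes, and open points 22 other AT1 genes. The medians fall from 0.09 to -0.92 and from 0.13 to -0.88, and Clic5, Akap5, Cav1 and Gprc5a lie below the boxes of their classes.

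The change with OVA moved with the length of the gene over the whole table. In Sham offspring the median change was 0.09 for genes with under 2 kb of exon, -0.27 from 2 to 4 kb, -0.54 from 4 to 6 kb and -0.92 from 6 kb. Ager (2141 bases), Pdpn (1817) and Hopx (1516), the genes with the smallest falls or none, are among the shorter members, and Clic5 (8782), Emp2 (8644) and Akap5 (6824) are the longest. With the trend of length and GC content removed from each library, the same 8 genes were called lower and 0 were called higher in both cohorts. The median of the 10 was then -1.11 in the Sham cohort and -1.12 in the PM cohort. The values for Sham lungs became -2.28 for Clic5, -2.19 for Gprc5a, -1.83 for Cav1, -1.82 for Akap5, -1.32 for Aqp5, -0.90 for Emp2, -0.88 for Hopx and -0.84 for Rtkn2. The median level of short genes minus that of long genes, taken relative to the saline mean, was -0.25 to 0.31 in the Sham, -0.14 to 0.06 in the PM, 0.95 to 1.18 in the Sham-OVA and 0.51 to 1.2996 in the PM-OVA libraries. Its part in the falls was not tested.

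The balance among the 10 genes was compared within each library, where the scaling cancels but the trend with length and GC content does not. With that trend removed, Ager and Clic5 changed by -0.093 and -2.28 in Sham offspring, against 0.53 and -2.83. Ager took 14.3% to 19.2% of the summed RPM of the 10 genes in Sham (median 16.8%) and 14.7% to 23.5% in PM, but 39.3% to 54.2% in Sham-OVA and 27.9% to 53.0% in PM-OVA. Clic5 took 10.8% to 16.0% in Sham and 1.74% to 4.68% in Sham-OVA, and Cav1 18.0% to 19.4% and 3.34% to 12.0%. Aqp5 held its share, with 3.37% to 4.99% in Sham and 3.78% to 4.32% in Sham-OVA. The ratio of Ager to Clic5, a pair chosen after its values were seen, was 0.896 to 1.76 in Sham and 0.952 to 2.33 in PM, and 8.41 to 31.1 in Sham-OVA and 3.73 to 23.1 in PM-OVA, without overlap. The ratio of Hopx to Cav1, also chosen in this way, was 0.546 to 0.697 in Sham and 1.08 to 4.30 in Sham-OVA, and in PM-OVA replicate 1, at 0.664, it fell within the PM range of 0.455 to 0.869.

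The 10 genes did not vary as 1 block between libraries of a group. After group means were removed, 28 of the 45 pairs had a positive Pearson r over the 14 saline libraries, with a median of 0.18. For the other genes tested, the mean r of a gene with the 10 members had a median of 0.05. A mean over 10 members and the r of a single pair are unlike measures. The highest values were 0.91 for Ager with Aqp5, 0.86 for Aqp5 with Pdpn and 0.85 for Ager with Hopx, and the lowest was -0.64 for Pdpn with Clic5. Clic5 reached 0.83 with Akap5 and 0.81 with Cav1. Ager, Aqp5 and Pdpn on one side and Clic5, Akap5, Cav1 and Emp2 on the other varied together, a split drawn after the values were seen. Hopx had positive values with both sides, such as 0.43 with Pdpn and 0.54 with Emp2. PM replicate 5 was an extreme of both sides, highest of its group for Ager (2272 RPM), Aqp5 (593) and Pdpn (246) and lowest for Clic5 (973) and Cav1 (1271). In the same library the summed level of 12 capillary genes was 4396 RPM, against 10738 to 12121 in the other PM libraries, and that of 10 AT2 genes 33764 RPM, against 18249 to 20986.

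Over the 9 OVA libraries the median r of the member pairs was 0.70, and the median of the mean r of other genes with the members was 0.49. Clic5, Cav1, Akap5 and Gprc5a were tied most closely, at 0.89 to 0.99, and Ager had negative values with all 4, down to -0.51, and -0.55 with Emp2. These values share the depth of the libraries, which was lowest where Clic5 and Cav1 were lowest. The genes most like the members were Prps2 (mean r 0.52), Triqk, Glod4, St6galnac6 and Tspan15 in the saline libraries and Klhl5 (0.75), Casp4, Vps50, Kctd6 and Ndufaf2 in the OVA libraries. No gene was in both groups of 5.

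The promoters of the genes that parted most are shown, because with the deposited scaling Ager and Pdpn did not fall and Akap5 and Clic5 fell most. Gprc5a, which fell second most with the length and GC trend removed, had no window. RefSeq (GRCm38.p6) gave a start site for 8 of the 10 genes, in 10 windows, and the 250 bases before the start are printed 5′ to 3′ on the strand of the gene. The windows are chr17:34597600-34597849 for Ager, chr4:143299565-143299814 for Pdpn, chr12:76324641-76324890 for Akap5 and chr17:44188322-44188571 for Clic5. Capitals mark the GC box GGGCGG, a site of Sp factors, on either strand.
Ager: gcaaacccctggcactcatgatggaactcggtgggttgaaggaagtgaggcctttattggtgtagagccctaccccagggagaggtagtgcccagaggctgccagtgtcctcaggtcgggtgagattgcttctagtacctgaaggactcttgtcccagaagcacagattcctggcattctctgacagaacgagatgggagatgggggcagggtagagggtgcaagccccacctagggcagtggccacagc
Pdpn: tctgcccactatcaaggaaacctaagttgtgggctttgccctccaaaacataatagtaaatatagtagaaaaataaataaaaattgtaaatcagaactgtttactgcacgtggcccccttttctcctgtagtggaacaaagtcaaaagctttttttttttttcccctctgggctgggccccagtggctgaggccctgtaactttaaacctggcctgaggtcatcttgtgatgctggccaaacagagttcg
Akap5: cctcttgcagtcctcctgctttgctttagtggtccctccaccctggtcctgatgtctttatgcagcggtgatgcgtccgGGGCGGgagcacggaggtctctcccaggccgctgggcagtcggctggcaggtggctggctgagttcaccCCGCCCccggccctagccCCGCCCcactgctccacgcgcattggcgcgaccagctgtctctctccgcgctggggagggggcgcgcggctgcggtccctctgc
Clic5: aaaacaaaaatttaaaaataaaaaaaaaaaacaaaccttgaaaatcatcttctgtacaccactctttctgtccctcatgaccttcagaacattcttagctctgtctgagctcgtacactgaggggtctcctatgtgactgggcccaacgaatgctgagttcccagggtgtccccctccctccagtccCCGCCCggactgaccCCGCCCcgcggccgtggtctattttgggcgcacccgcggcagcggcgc

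The GC box was absent from the windows of Ager, Pdpn and Hopx. It was present 3 times in that of Akap5, 2 times in those of Clic5, Aqp5 and Emp2 and 1 time in 1 of the 2 windows of Cav1, and 32.7% of the 32851 windows of the table held it. The window of Ager had 3 CpG and that of Pdpn 2, against a median of 6 over the table, 13 in Clic5, 20 in Akap5 and 38 in Aqp5. The Aqp5 window, chr15:99590778-99591027, lies almost wholly inside the gene as placed above from GENCODE. The same holds for 1 window of Hopx and 1 of Cav1. The other letters searched on both strands were GGAATG, the core bound by TEAD factors (in 12.6% of all windows), CAAGTG, bound by NKX2-1 (11.6%), AGATAA, bound by GATA factors (9.99%), TATAAA (12.4%), the half-site TTGGC of NFI factors (41.5%) and CACCC of KLF factors (52%). The first 3 were in 0 of the 10 windows, TATAAA in 1 of Cav1, TTGGC in 1 each of Hopx, Pdpn, Akap5 and Cav1, and CACCC in those of Ager, Aqp5, Akap5 and Clic5. A GC box overlapped another of these motifs at 1 place. These windows say nothing of sites further away.

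Other genes of the AT1 cell fell with the set. Of 22 such genes, 21 were lower and 1 higher in Sham offspring (median -1.58), and 20 and 1 in PM offspring (median -1.39). Over all genes tested, 47.5% were lower and 20.6% higher in Sham offspring, and 45.2% and 20.1% in PM offspring. The count of each list below is to be read beside these shares. With the length and GC trend removed 20 were lower and 0 higher in both cohorts, and with the other scalings and tools 16 to 20 were lower in Sham offspring. The largest falls were in Col4a3, a chain of basement membrane collagen IV, from 145 to 316 RPM in Sham to 1.55 to 20.6 RPM in Sham-OVA (log2 change -4.39, adjusted p = 2.03e-06), and in Cav2, the partner of caveolin-1, from 299.7 to 566 RPM to 12.4 to 83.9 RPM (-3.33, adjusted p = 3.15e-06). Ahnak and Timp3, those with the highest RPM, changed by -2.37 and -1.51. Igfbp2, a binding protein of insulin-like growth factors that marks mature AT1 cells, rose by 1.13 in Sham (adjusted p = 0.00167) and 1.35 in PM offspring (adjusted p = 0.00803), and did not pass with the length and GC trend removed (0.45 and 0.58).

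Among 8 transcription regulators of AT1 cells, 5 fell and 1 rose in both cohorts, where 47.5% (Sham) and 45.2% (PM) of all genes were called lower. Tead1, the DNA-binding partner of YAP and TAZ, changed by -2.58 in Sham and -2.62 in PM offspring, and Wwtr1, which encodes TAZ, by -1.60 and -1.64. Klf5 rose by 0.71 and 0.81. Nkx2-1, the lung lineage factor, was at 255 to 430.5 RPM in Sham and 136 to 292 RPM in Sham-OVA (-0.35, adjusted p = 0.122), and Nfib was at 414 to 499 and 385 to 480.0 RPM (-0.042, adjusted p = 0.764), with signs that turned under other scalings. Of 6 targets of YAP and TAZ, 6 fell in Sham (median -1.45) and 5 in PM offspring (median -1.47). Ankrd1 changed by -1.92 and -2.16 and Ajuba by -1.79 and -1.64. Ccn1 and Ccn2, those with the highest RPM, changed by -0.98 and -0.84 in Sham offspring and did not pass there with TMM scaling or edgeR.

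The partners of single members moved in different ways. Of 7 caveola components, 4 fell and 1 rose in Sham and 5 fell and 0 rose in PM offspring. Of all genes, 47.5% and 45.2% were called lower there. Cav2 is counted both here and among the other AT1 genes. Pacsin2, which shapes the neck of caveolae, changed by -4.01 and -3.88, and Cavin2 by -1.65 and -1.31, whereas Cavin1, the coat protein that caveolae require, was at 900.1 to 1375 RPM in Sham and 1194 to 2334 RPM in Sham-OVA (0.40, adjusted p = 0.0712). Cav3, the muscle caveolin, rose by 0.52 in Sham offspring and had a value of -0.27 with the length and GC trend removed. Of 7 tested ligands of RAGE, 4 rose and 1 fell in both cohorts, and 2 rose in Sham and 3 in PM offspring with the length and GC trend removed. S100a4 went from 16.4 to 29.99 RPM in Sham to 80.8 to 173 RPM in Sham-OVA (log2 change 2.502, adjusted p = 2.10e-07) and S100a6 changed by 1.85. Hmgb1, at 7.61 to 17.2 RPM in Sham, changed by -1.99.

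Of 6 other aquaporins tested, Aqp1, the water channel of capillary endothelium, changed by -1.86 in Sham and -1.63 in PM offspring, and Aqp4 by -2.63 and -1.68. Aqp9, a channel of leukocytes, rose by 1.56 and 1.04, and Aqp11, named after its values were seen, rose in PM offspring by 0.76. Of 3 tested partners of podoplanin, Cd44 rose by 0.90 and 0.46, and Lgals8 changed by -0.60 and -0.72, which did not pass in Sham offspring with the 4 scalings or tools named above. Of 12 genes of the cells between the AT2 and AT1 states, 3 rose and 5 fell in Sham offspring and 4 and 5 in PM offspring, but 5 rose and 2 fell in Sham offspring with the other scalings. The largest rises were in Lgals3 (2.23) and Sprr1a (1.89, from a mean of 0.214 to 2.44 RPM), and the largest falls in Krt18 (-2.10) and Krt8 (-1.31, from 0.990 to 0.0891 RPM). Krt8 and Sprr1a lay near the 0.5 RPM added before the log, so the size of their changes is uncertain. Under the other scalings, tools and the length and GC fit, Krt8 ran from -2.95 to -0.72 and Sprr1a from 1.05 to 3.97.

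**Figure D5:**
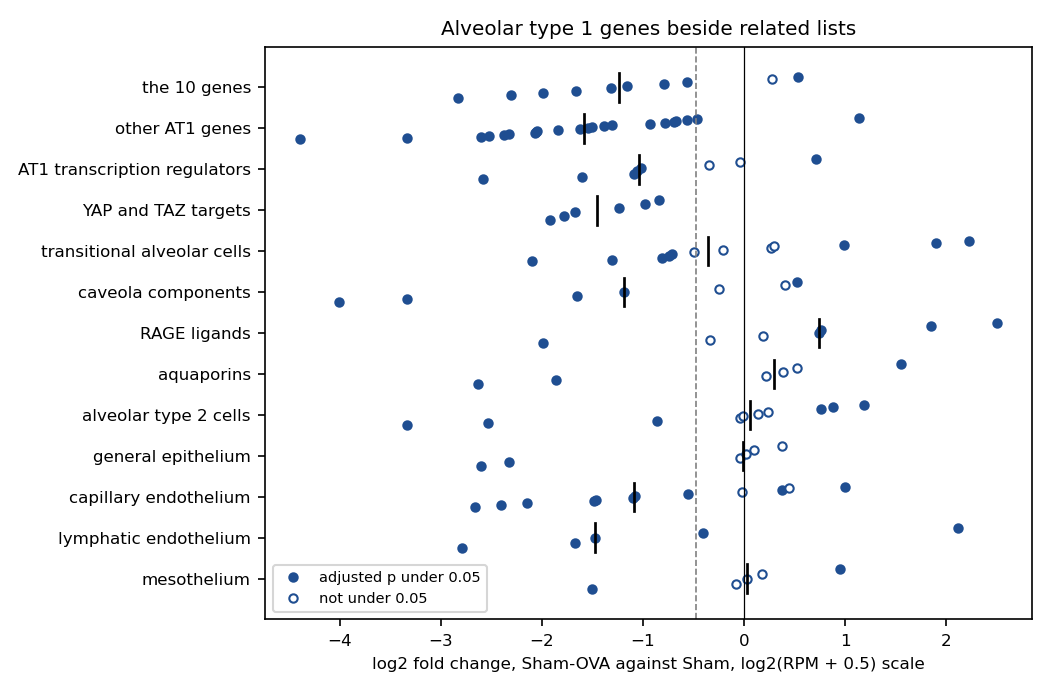
Log2 fold change of each gene in Sham-OVA against Sham, by gene list, filled where the adjusted p was under 0.05, with a black line at the median of the list and a dashed line at the median of all genes tested (-0.48). The 10 genes and the other AT1 genes have medians of -1.24 and -1.58, the capillary list -1.09 and the AT2 list 0.06, and 26 of the 115 genes plotted, Ager, Pdpn, Nfib, Nkx2-1 and Cav3 among them, turn sign under another scaling or tool or with the length and GC trend removed.

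Markers of the other cells that hold the members, and of cells that could change their share, moved beside them. Of all genes tested in Sham offspring, 47.5% were called lower and 20.6% higher. Of 12 capillary genes 8 fell and 2 rose in Sham offspring (median -1.09), and their summed level was 7094 to 12283 RPM in Sham, 4396 to 12121 in PM, 5559 to 7008 in Sham-OVA and 6120 to 7543 in PM-OVA. Ptprb and Calcrl changed by -2.66 and -2.40, and Car4, 1 of the 2 that rose, by 1.00. Of 5 lymphatic genes 4 fell and 1 rose, with Lyve1 at -2.79 and summed levels of 309 to 817 RPM in Sham and 108 to 194 RPM in Sham-OVA. Of 5 mesothelial genes 1 rose and 1 fell, with 211 to 949 RPM in Sham and 374 to 531 RPM in Sham-OVA.

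Of 10 AT2 genes 3 rose and 3 fell in both cohorts, with Sftpc 1.19 and Lamp3 -3.34 in Sham offspring. With the other scalings and tools 1 to 7 rose in Sham and 1 to 5 in PM offspring, and Sftpc did not pass in Sham offspring with quantile normalisation or with the length and GC trend removed. Their summed level was 14945 to 26155 RPM in Sham and 31606 to 38492 RPM in Sham-OVA. Of 6 genes shared by epithelial cells 2 fell and 0 rose in Sham offspring, but 1 to 4 rose with the other scalings and tools. Of 8 leukocyte genes 4 rose and 1 fell in Sham offspring, but 6 to 7 rose with the other scalings and tools, and their sum, most of it Jchain in the OVA libraries, went from 334 to 530 RPM in Sham to 4110.2 to 10487 RPM in Sham-OVA and from 339 to 464 RPM in PM to 5085 to 10284 RPM in PM-OVA. Of 4 club cell genes 1 rose and 2 fell, and of 7 fibroblast genes 0 rose and 3 fell, in both cohorts. With the other scalings and tools 2 fibroblast genes rose in Sham offspring. Without the libraries in doubt 2 rose there too, and 5 fell in PM offspring. No gene of these lists was at 0 in every library of a group. The summed level of the 10 members was 7600.5 to 11305 RPM in Sham, 9655 to 10363 in PM, 4088 to 5952 in Sham-OVA and 5032 to 6319 in PM-OVA, so that no OVA library reached the lowest saline library. The part of these other cells in the changes of the 10 genes was not tested.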

How the data were processed

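RNA from lung homogenates of 23 offspring had been sequenced as single-end reads from an Illumina Stranded mRNA library and mapped to the mouse genome (mm10 in the submitters' processing notes). The authors deposited 1 table of gene values in RPM, made with SeqMonk. The table is named for RPKM, but the values were not divided by length, as whole reads were recovered in 100% of them (within 0.05 read). The tests had been planned for RPKM and were kept.

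Groups were taken from the treatment labels. The main test was limma 3.58.1 (R 4.3.3) on log2(RPM + 0.5) with a trend in the variance, fitted in pairs of groups without covariates over the 16795 genes that reached 0.5 RPM in 4 or more libraries. It is two-sided, with Benjamini-Hochberg adjustment over all of them and a call at an adjusted p under 0.05. All adjusted p printed in the text are from limma. The interaction used all 4 groups. Count tests of the recovered reads (edgeR 4.0.16 and DESeq2 1.42.0), other scalings, filters and pseudocounts, a block on replicate number, removal of a trend with length and GC content (16503 genes) and leaving out each replicate were alternatives. The fits were tested on simulated data. p-values measure the spread between these libraries, and counts limit the precision of the shallowest. Lengths and positions are from GENCODE vM21 (GRCm38) and promoters from RefSeq.

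The 10 members and 17 other gene lists were chosen with earlier results of these data known. The genes named from each other list are up to 2 with the largest rise, 2 with the largest fall and 2 with the highest RPM in Sham-OVA against Sham. The 5 genes most like the members are those with the highest mean Pearson r with them after group means were removed. The list counts under other scalings and the count tests at the threshold of the study were added after the data were seen.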

Additional observations from a re-analysis of the deposited data

Results flagged for a closer look

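Within each of the 4 groups, the highest and the lowest library of each member were compared with the gap that Dixon's 95% limit allows, and 10 of 40 gene and group combinations had a library beyond it. Chance gives about 1 in 20, and members that vary together are not separate cases. PM replicate 5 was the highest of its group for Ager (2272 RPM), Aqp5 (593 RPM) and Pdpn (246 RPM) and the lowest for Clic5 (973 RPM) and Cav1 (1271 RPM). Sham-OVA replicate 3, the shallowest library with 2298645 reads, was the lowest of its group for Gprc5a (101 RPM), Clic5 (71.1 RPM) and Cav1 (136 RPM). Sham replicate 3 was the lowest of its group for Clic5 (819 RPM), and PM-OVA replicate 3 for Rtkn2 (109.5 RPM).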

How the results depend on the processing

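The 8 falls in Sham offspring passed in each of the 12 fits that left out 1 library, and the 8 in PM offspring in each of 11. In Sham offspring 1 member, Ager, was called higher. The count was 1 with quantile normalisation too, where it was Pdpn and not Ager. It was 2 with median-of-ratios or TMM scaling, array weights, DESeq2, edgeR or without the 4 libraries in doubt, and 0 with the length and GC trend removed (where Ager turned to -0.093), with a block on the library-name number, at an adjusted p under 0.01 or with an absolute log2 fold change above 1, and it ranged from 1 to 2 when a library was left out (2 without Sham-OVA replicate 3). In PM offspring 0 were called higher. The count was 2 with median-of-ratios or TMM scaling or DESeq2, 1 with array weights, with robust estimation, in a single fit of the 4 groups, with no variance trend, with edgeR or without the libraries in doubt, and ranged from 0 to 1 when a library was left out (1 without PM replicate 5 or PM-OVA replicate 1). The 8 members lower in PM offspring became 5 with an absolute log2 fold change above 1, and 0 in both cohorts with limma at the threshold of the study. At that threshold 4 members were lower in Sham and 2 in PM offspring with DESeq2, 2 and 0 with edgeR, and 0 were higher with either tool, a combination chosen after seeing the data. With array weights 4 members were lower in the interaction, and the values of Gprc5a (-0.72), Clic5 (-0.86) and Cav1 (-0.94) changed sign. The causes were not tested.

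The title numbers did not pair the OVA with the saline libraries. After group means were removed, libraries of the same number had r of -0.101 to 0.115 over all genes tested. Between PM-OVA and Sham-OVA, r was 0.60 and 0.62 for numbers 1 and 3, and 0.22 and -0.31 for 2 and 4. The cause was not tested. With the title numbers as a replicate block 8 members were lower in Sham and 7 in PM offspring, where Hopx was lost. With the library-name numbers as the block the counts were 8 and 3, and over all genes 966 were higher and 2041 lower in PM offspring, against 3379 and 7589. Over all genes the interaction had 0 calls, but 651 higher and 3965 lower with array weights, and 334 and 714 without the libraries in doubt. With edgeR 5584 genes were higher and 5669 lower in Sham offspring, against 3453 and 7978. Depth limits Sham-OVA replicate 3 most, where 1 read was worth 0.311 RPM.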
